A study of Mus musculus with 6 samples.

Results

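The 9 genes described here are cardiac adrenergic receptors (Adrb1, Adra1a and Adra1b), adenylyl cyclases (Adcy5 and Adcy6), a receptor kinase (Grk5) and cyclic AMP phosphodiesterases (Pde3a, Pde4d and Pde4b). They were chosen by symbol from a raw count table of 24404 genes, and all 9 were found in it. Hearts of miR-204-/- mice (KO-TAC, 3 libraries) were set against hearts of wild-type mice (WT-TAC, 3 libraries). Both genotypes had undergone transaortic constriction, an operation that narrows the aorta and makes the left ventricle pump against a raised pressure, and hearts were taken 5 weeks later. Messenger RNA of the heart was sequenced, and unoperated hearts were not analysed here. Strain, sex, age and the number of animals per sample are not given in the sources used here, and the p-values therefore measure only the spread between these samples.

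Adrenergic signalling sets the force and rate of the heartbeat. Noradrenaline and adrenaline bind the beta-1 receptor encoded by Adrb1, the stimulatory G protein then activates adenylyl cyclase, and the cyclic AMP that is made activates protein kinase A, which phosphorylates calcium-handling and sarcomere proteins. Receptor kinases such as the product of Grk5 phosphorylate occupied receptors and so dampen the signal, and phosphodiesterases break cyclic AMP down. Alpha-1 receptors, encoded by Adra1a and Adra1b, act through another G protein class and phospholipase C, and are known for their part in growth of cardiac myocytes.

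Because miR-204 is the molecule that the KO-TAC mice lack, the sequences shown are its mature form and the matches to its seed in the longest annotated 3' untranslated region of the 9 genes. A microRNA pairs with target transcripts mainly through its seed, which is bases 2 to 8. The mature miR-204-5p (RefSeq, GRCm38.p6, chr19:22750610-22750631, plus strand) is given with its seed in capitals, and the sites follow with the seed match AAAGGGA in capitals, each within its flanking bases (GENCODE M21 transcripts, GRCm38).
mmu-miR-204-5p: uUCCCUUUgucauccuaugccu
Adrb1, chr19:56724360-56724388, plus strand: gttcttaaagcAAAGGGAaaagaaggatg
Adra1a, chr14:66727974-66728002, plus strand: aggtcacaggaAAAGGGAtgacactaggt
Adcy6, chr15:98592213-98592241, minus strand: tgctgacagcaAAAGGGAacaccccagcg
Adcy6, chr15:98591728-98591756, minus strand: caaaggggaacAAAGGGAcctctgacagt
Pde3a, chr6:141499497-141499525, plus strand: tgtgcatgagaAAAGGGAgatgtttatga
Pde3a, chr6:141500014-141500042, plus strand: ggtgctgagacAAAGGGAtgaaggcaaaa
Pde3a, chr6:141500436-141500464, plus strand: aaaaaaaggggAAAGGGAaacattttata
Pde3a, chr6:141502958-141502986, plus strand: catgaatttgtAAAGGGAaattatgaatt

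The match stood in 4 of the 9 genes, and in 17.0% of the 11690 tested genes for which a 3' untranslated region was found. Pde3a held 4 of these sites in a region of 8555 bases, the longest of the 9, and Adcy6 held 2 in 2377 bases. The shortest region of the 9 was that of Adra1b, with 1255 bases. The 17.0% over all tested genes was not matched for the length of the region, and the difference from it was not tested. In Adrb1, in the upstream Adcy6 site and in the last 2 Pde3a sites the match was followed by an A, the extension that lengthens it to 8 bases. The Adra1a site lay in the region of 1 of 5 coding transcripts. Of 4 coding transcripts of Adcy6, 2 held the upstream site and 1 the other. Adra1b, Adcy5, Grk5, Pde4d and Pde4b had no AAAGGGA in the region searched. A match of letters is a description and does not show that miR-204 binds there.

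The libraries held 6609315, 8494415 and 7013199 counts in KO-TAC and 6411538, 8571737 and 7207111 in WT-TAC, of which the 9 genes took 4409 to 5952 in KO-TAC and 4524 to 6328 in WT-TAC. The column of KO-TAC replicate 3 carries the leading number of WT-TAC replicate 3, a library of the other genotype that has its own column. It was assigned by its library index, so the log2 fold change of each of the 9 genes is also given without KO-TAC replicate 3. Mir204 had 0 counts in every library, wild type included, and gave no check of the genotype. Cardiomyocyte markers (Myh6, Tnnt2, Actc1, Ryr2, Myl2 and Tnni3) were high throughout, at 63105 to 90119 CPM (counts relative to the TMM-scaled library size) in sum in KO-TAC and 68426 to 80727 in WT-TAC. Some libraries stood apart in other cell types. The summed markers of atrial myocytes were 436 CPM in KO-TAC replicate 3, against 5639 and 7688 in the other KO-TAC libraries and 2987 to 8791 in WT-TAC. Smooth muscle markers were lowest in the same library, at 160 CPM against 329 and 335 in the other KO-TAC libraries and 307 to 454 in WT-TAC.

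None of the 9 genes passed the test between the genotypes. In edgeR's quasi-likelihood test over 12487 genes, 0.024% of genes passed at an adjusted p under 0.05, and 0 of the 9 did. At an unadjusted p under 0.05 the share of all tested genes was 2.93%, and again 0 of the 9 were below it. DESeq2, which called 17 of 17718 genes, and limma-voom, which called 0 of 12487, likewise called 0 of the 9. On the log2 scale, where a positive value means higher in KO-TAC, the fold changes, given ± SE throughout, were above 0 for 4 of the genes and below 0 for 5, with a median of −0.10, beside 0.00122 over all tested genes. The median size of the change, whatever its direction, was 0.21 in the 9 genes and 0.19 in all tested genes. All 9 had an adjusted p of 0.999.

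Adrb1, which encodes the main beta receptor of the heart, stood at 14.8, 24.8 and 27.5 CPM in KO-TAC hearts and at 20.4, 30.9 and 15.3 CPM in WT-TAC hearts. The groups overlapped, and a low library occurred in each. The log2 fold change was 0.01 ± 0.31 (SE), and the 95% interval of the fold ran from 0.630 to 1.60. Leaving out each library in turn gave −0.20 to 0.32, and without KO-TAC replicate 3 the value was −0.17, on the other side of 0.

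Adra1a, an alpha-1 receptor of myocytes, had 11.5, 17.5 and 34.3 CPM in KO-TAC and 11.5, 27.0 and 29.3 CPM in WT-TAC. Its levels spread widely within both groups, and replicate 1 was the lowest library of each. Over the 6 libraries the highest level was 2.99 times the lowest, the widest range of the 9 genes. Its log2 fold change was −0.10 ± 0.42, with an interval of the fold from 0.488 to 1.78. It was −0.64 without KO-TAC replicate 3, with an unadjusted p of 0.117 in edgeR, and 0.19 without KO-TAC replicate 1.

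Adra1b, the other alpha-1 receptor, had 14.8, 13.6 and 24.7 CPM in KO-TAC and 9.28, 22.2 and 14.0 CPM in WT-TAC. The groups overlapped, with KO-TAC replicate 3 the highest library, as for Adra1a. The log2 fold change was 0.22 ± 0.35 (fold interval 0.688 to 1.96), and leaving out 1 library moved it between −0.10 and 0.60. The lower of these, below 0, is the value without KO-TAC replicate 3, and the higher is that without WT-TAC replicate 2.

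The log2 ratio of Adra1a to Adra1b counts within a library, which does not depend on how libraries are scaled, was 0.16 ± 0.45 in KO-TAC and 0.55 ± 0.45 in WT-TAC (SD, n = 3). The exact two-sided permutation test gave a p of 0.6 (adjusted over 4 ratios, 1.00). With 3 libraries against 3 its smallest possible p is 0.1.

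**Figure D1:**
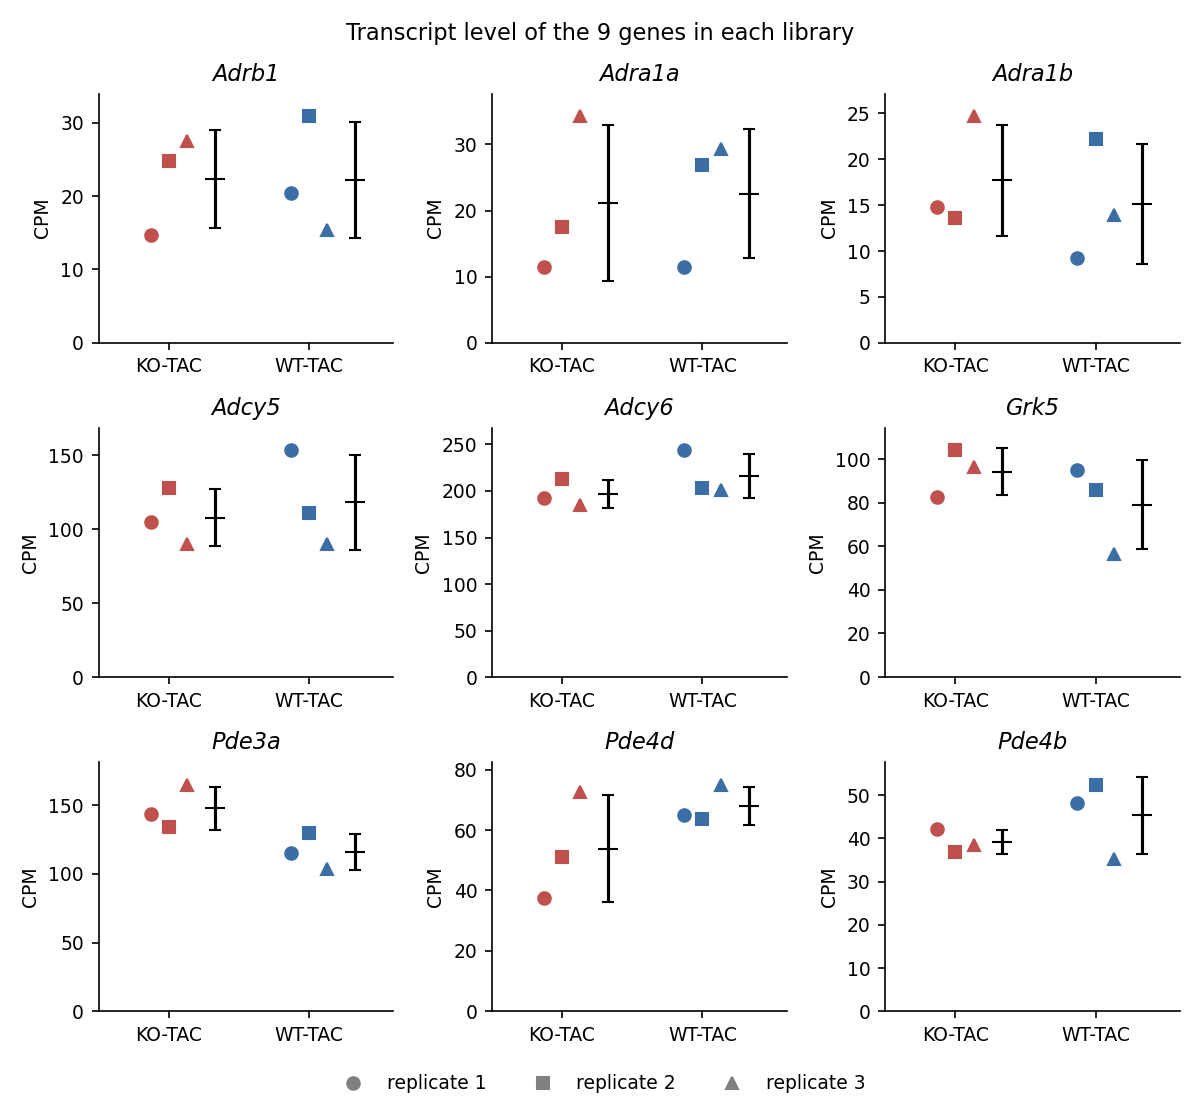
Level of each of the 9 genes in CPM (y axis, from 0) in every library, KO-TAC (red) left of WT-TAC (blue), with symbols for replicates and bars for the mean ± SD of 3 libraries. Pde3a is the gene whose KO-TAC libraries (134 to 165 CPM) all lie above its WT-TAC libraries (103 to 130 CPM); the others overlap.

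Adcy5 and Adcy6 encode the closely related adenylyl cyclases that prevail in cardiac myocytes and that calcium inhibits. Adcy5 had 105, 128 and 89.8 CPM in KO-TAC and 153, 111 and 89.7 CPM in WT-TAC. Adcy6 had 193, 213 and 185 CPM in KO-TAC and 244, 203 and 201 CPM in WT-TAC. Both overlapped between the genotypes, and WT-TAC replicate 1 was the highest library for both. Log2 fold changes were −0.13 ± 0.22 for Adcy5 (fold interval 0.656 to 1.27) and −0.14 ± 0.18 for Adcy6 (0.698 to 1.19). Without WT-TAC replicate 1 these were 0.09 and −0.05, and without KO-TAC replicate 3 they were −0.02 and −0.09. WT-TAC replicate 1 was also the lowest library for Adra1b and, level with KO-TAC replicate 1, for Adra1a. WT-TAC replicate 1 had the highest summed fibroblast markers, 2094 CPM against 786 to 1656 in KO-TAC and 1048 and 1197 in the other WT-TAC libraries. It also had the highest summed markers of atrial myocytes, at 8791 CPM, and of sympathetic neurons, at 51.4 CPM. Its cardiomyocyte sum, 68426 CPM, was the lowest in WT-TAC. The part of any of these cell types in the Adcy5 and Adcy6 levels was not tested. In bulk tissue fewer cells of a type and less RNA per cell cannot be told apart. The log2 ratio of Adcy5 to Adcy6 was −0.88 ± 0.15 in KO-TAC and −0.90 ± 0.25 in WT-TAC (SD, n = 3), an exact permutation p of 1.00.

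Grk5, the receptor kinase, had 82.4, 104 and 96.5 CPM in KO-TAC and 95.2, 85.8 and 56.4 CPM in WT-TAC. WT-TAC replicate 3 stood below the other libraries, which overlapped. On the log2 scale it differed by 0.25 ± 0.21 (fold interval 0.866 to 1.64), by 0.06 without WT-TAC replicate 3 and by 0.24 without KO-TAC replicate 3. Set against the receptor it can phosphorylate, the log2 ratio of Grk5 to Adrb1 counts was 2.12 ± 0.34 in KO-TAC and 1.85 ± 0.37 in WT-TAC (SD, n = 3; exact permutation p = 0.5, adjusted 1.00). Without WT-TAC replicate 2 the difference of these means, 0.26 with all libraries, was 0.07.

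Pde3a, the phosphodiesterase that cyclic GMP inhibits and that acts on cyclic AMP near the sarcoplasmic reticulum, had 144, 134 and 165 CPM in KO-TAC hearts and 115, 130 and 103 CPM in WT-TAC hearts. All 3 KO-TAC libraries lay above all WT-TAC libraries, by a small margin between KO-TAC replicate 2 and WT-TAC replicate 2. Of all tested genes 7.98% had groups that did not overlap, and of the 9 genes 1 did. The mean was 148 ± 15.7 CPM in KO-TAC and 116 ± 13.4 CPM in WT-TAC (SD, n = 3). The log2 fold change was 0.35 ± 0.18, a fold of 1.27 with an interval from 0.975 to 1.66. The unadjusted p of 0.0728 in edgeR was the smallest of the 9, and the adjusted p was 0.999. With each library left out in turn the log2 fold change stayed above 0, from 0.26 without KO-TAC replicate 3 to 0.44 without WT-TAC replicate 2. Of all tested genes, 26.1% had a larger change in either direction. Pde3a also holds the most AAAGGGA matches of the 9 genes, the 4 sequences shown above, in the longest region searched. The other genes with a match, Adrb1, Adra1a and Adcy6, had log2 fold changes of 0.01, −0.10 and −0.14. Whether the matches have a part in the level of any of these genes was not tested.

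Blood endothelial markers (Pecam1, Cdh5, Kdr, Tie1, Emcn and Fabp4) were on the same side as Pde3a. Their sum was 1138 to 1254 CPM in KO-TAC and 887 to 1016 in WT-TAC, and all 6 were higher with 0 called. Their part in the Pde3a levels was not tested. Smooth muscle markers, whose cells also use Pde3a, had log2 fold changes below 0 for 6 of 6. Their sum was 335, 329 and 160 CPM in KO-TAC and 307 to 454 in WT-TAC. Only KO-TAC replicate 3 lay below the WT-TAC range, and the part of smooth muscle in the Pde3a levels was not tested either.

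Pde4d, which encodes cyclic AMP-specific enzymes that associate with beta receptors and the ryanodine receptor, had 37.6, 51.0 and 72.7 CPM in KO-TAC and 65.1, 63.6 and 75.1 CPM in WT-TAC. KO-TAC replicates 1 and 2 lay below every WT-TAC library, and KO-TAC replicate 3 lay among them. Its log2 fold change was −0.34 ± 0.23 (fold interval 0.560 to 1.12). Without KO-TAC replicate 3 it was −0.62, with an unadjusted p of 0.0117 and an adjusted p of 0.692 in edgeR. In that fit 5.58% of all tested genes had an unadjusted p under 0.05, more than the 2.93% with all 6 libraries. Without KO-TAC replicate 1 it was −0.13. This was the only one of the 9 genes to reach an unadjusted p under 0.05 in any of the 15 fits made, and it was called in none.

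Pde4b, its relative that regulates the L-type calcium current, had 42.2, 36.8 and 38.4 CPM in KO-TAC and 48.3, 52.4 and 35.3 CPM in WT-TAC. WT-TAC replicate 3 was the lowest of the 6 libraries, so the groups overlapped. The log2 fold change was −0.21 ± 0.21 (fold interval 0.631 to 1.18), and −0.20 without KO-TAC replicate 3. The log2 ratio of Pde4d to Pde4b was 0.41 ± 0.55 in KO-TAC and 0.60 ± 0.43 in WT-TAC (SD, n = 3; exact permutation p = 0.8, adjusted 1.00). The difference of these means was −0.19 with all libraries and −0.45 without KO-TAC replicate 3.

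**Figure D2:**
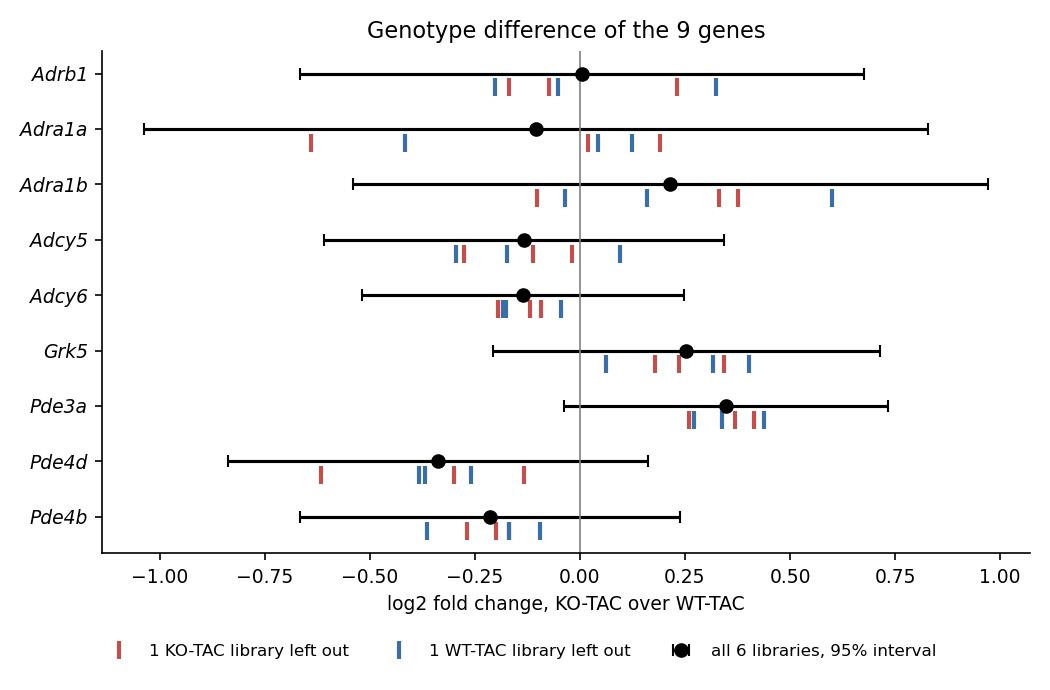
Log2 fold change of KO-TAC over WT-TAC (x axis) for each of the 9 genes, as points with 95% intervals from edgeR's quasi-likelihood fit; ticks below give the value with 1 KO-TAC (red) or 1 WT-TAC (blue) library left out. Every interval includes 0, and the ticks of Adcy6, Grk5, Pde3a, Pde4d and Pde4b stay on 1 side of it.

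Levels of different genes were compared as CPM per kilobase of merged exons. Adcy6 was the highest of the 9, at 29.0 ± 2.17 in KO-TAC and 31.9 ± 3.52 in WT-TAC (SD, n = 3), and lay above Adcy5, at 15.0 ± 2.68 in KO-TAC and 16.4 ± 4.50 in WT-TAC, in 6 of 6 libraries with no overlap. Below them, averaged over all 6 libraries, came Grk5 at 12.3, Pde3a at 10.3, Adrb1 at 6.59, Pde4d at 5.07, Adra1b at 4.85, Pde4b at 4.0 and Adra1a at 2.50 CPM per kilobase. Each neighbouring pair in that order after Adcy6 and Adcy5 overlapped in range over the libraries. Pde4d, Pde4b and Adra1a have many transcripts, and with the longest single transcript as the length they stood at 14.5, 9.82 and 5.10, so their place in the order depends on the length used.

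Of 8 adrenergic receptor genes compared, Adrb1 had the highest mean level, 33.2% to 49.3% of their summed level in KO-TAC and 31.3% to 54.2% in WT-TAC. Adra1b took 27.1% to 33.5% in KO-TAC and 24.6% to 32.5% in WT-TAC, and Adra1a 10.1% to 18.1% in KO-TAC and 11.8% to 23.2% in WT-TAC. By the longest transcript the mean share over all libraries was 25.3% for Adra1a and 24.8% for Adra1b, so their order depends on the length used. Adra1d, the remaining alpha-1 receptor gene, stood at 2.02 ± 0.716 CPM per kilobase in KO-TAC and 1.09 ± 0.606 in WT-TAC (SD, n = 3). The beta-3 and alpha-2 receptor genes Adrb3, Adra2a, Adra2b and Adra2c did not pass the filter on low counts.

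Adcy5 and Adcy6 together made up 58.6%, 61.7% and 60.3% of the summed level per length of 10 adenylyl cyclase genes in KO-TAC and 68.7%, 63.3% and 64.5% in WT-TAC. The groups did not overlap, with means of 60.2% ± 1.58 in KO-TAC and 65.5% ± 2.83 in WT-TAC (SD, n = 3). This share was computed for 4 families after the values were seen. The exact two-sided permutation p was 0.1, the smallest that 3 against 3 allows, and 0.4 when adjusted over the 4. In the other families the groups overlapped. The share of Adrb1, Adra1a and Adra1b among the receptors was 85.1% ± 7.54 in KO-TAC and 88.9% ± 5.38 in WT-TAC (SD, n = 3; exact permutation p = 0.5, adjusted 0.5). That of Grk5 among 5 receptor kinases was 39.2% ± 5.80 in KO-TAC and 33.6% ± 3.85 in WT-TAC (SD, n = 3; exact permutation p = 0.3, adjusted 0.4). Pde3a, Pde4d and Pde4b made up 30.1% ± 1.42 of the phosphodiesterases in KO-TAC and 27.7% ± 1.78 in WT-TAC (SD, n = 3; exact permutation p = 0.3, adjusted 0.4). This last difference, 2.42 percentage points by merged exons, was 0.37 by the longest transcript, so it depends on the length used. After Adcy6 and Adcy5 the next cyclase in level was Adcy9, which forskolin activates weakly, at 13.9 ± 2.77 CPM per kilobase in KO-TAC and 12.2 ± 2.22 in WT-TAC. Adcy7 stood at 6.41 ± 2.07 in KO-TAC and 4.90 ± 2.56 in WT-TAC, and Adcy4 at 5.09 ± 1.93 in KO-TAC and 5.31 ± 0.969 in WT-TAC. Adcy1 stood at 2.12 ± 0.872 in KO-TAC and 1.35 ± 0.443 in WT-TAC. Adcy9, Adcy7, Adcy4 and Adcy1 each overlapped between the genotypes. Grk5 shared the lead of the receptor kinases with Grk2, at 13.4 ± 1.55 for Grk5 and 12.3 ± 1.01 for Grk2 in KO-TAC and 11.2 ± 2.87 and 12.6 ± 0.738 in WT-TAC. Among 18 phosphodiesterase genes Pde3a had the highest level per merged exon length, but by the longest transcript it stood behind Pde4a, Pde4d, Pde1c and Pde2a.

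**Figure D3:**
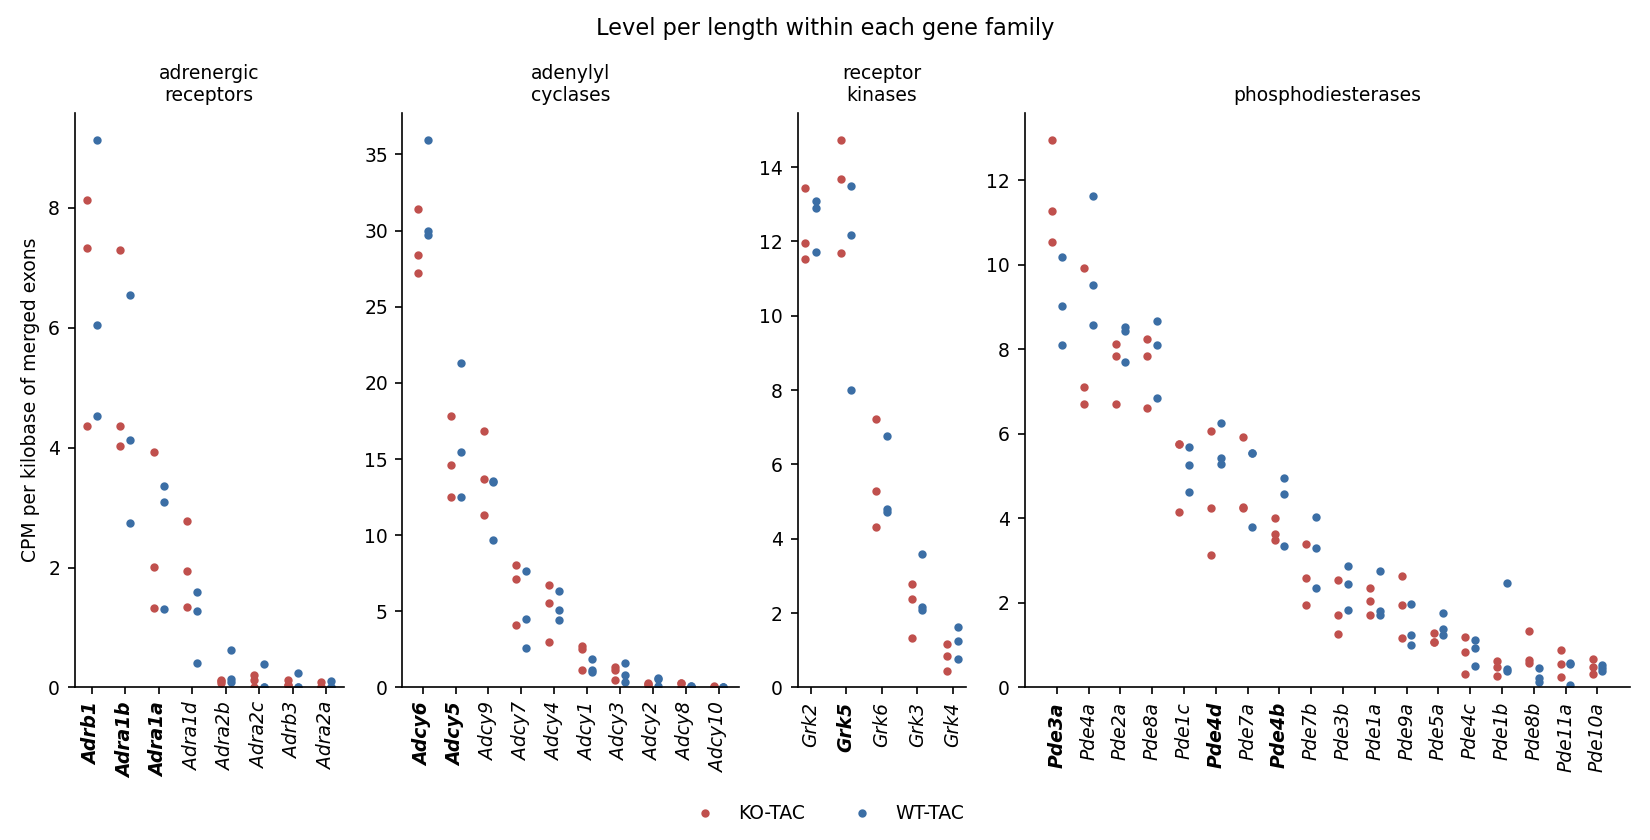
CPM per kilobase of merged exons (y axis, from 0, scaled separately in each panel) for the genes compared in 4 families, ordered by mean level, with a point for each KO-TAC (red, left) and WT-TAC (blue, right) library; the 9 genes described are in bold. Adcy6 stands above all other cyclases in every library, and Adrb1, Adra1b and Adra1a lead the receptors shown by mean level.

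The rest of the pathway was described through 102 other genes in 12 lists. Of these 12 did not pass the filter on low counts and 90 were tested, 44 higher and 46 lower in KO-TAC, with 0 called and a median log2 fold change of −0.02. The groups did not overlap for 5 of the 90, beside 7.98% of all tested genes, and 4 had an unadjusted p under 0.05 in edgeR, beside 2.93%. DESeq2 and limma-voom, which called 17 and 0 of all tested genes, called 0 of the pathway genes.

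Upstream of the cyclases, both receptors that oppose the beta receptor had log2 fold changes below 0. Chrm2, the muscarinic receptor through which the vagus slows the heart, had 47.0, 49.2 and 49.9 CPM in KO-TAC and 57.9, 57.8 and 67.5 CPM in WT-TAC, without overlap. Its log2 fold change was −0.33 ± 0.18 (unadjusted p = 0.0934 and adjusted p = 0.999 in edgeR). Adora1, the adenosine A1 receptor gene, had −0.23 ± 0.29. Of 11 tested G protein genes 7 were higher and 4 lower, with a median of 0.07. Gnas, the stimulatory subunit that couples beta receptors to cyclase, had 678, 886 and 753 CPM in KO-TAC and 709, 748 and 752 CPM in WT-TAC, a log2 fold change of 0.07 ± 0.19. Gnao1, an inhibitory class subunit, had −0.40 ± 0.21 and Gng5 0.38 ± 0.24. Gna11, a subunit of the class that alpha-1 receptors use, had non-overlapping levels of 58.7 to 61.2 CPM in KO-TAC and 65.0 to 68.9 in WT-TAC, with a log2 fold change of −0.16 ± 0.17.

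Among the relatives of the 9 genes, Adra1d had a log2 fold change of 0.87 ± 0.65. Of 5 other cyclases 4 were higher and 1 lower (median 0.19), with Adcy1 at 0.66 ± 0.34 and Adcy7 at 0.39 ± 0.37. Receptor kinases and arrestins had 2 higher and 4 lower (median −0.15), with Arrb2, an arrestin, at −0.73 ± 0.62, Grk4 at −0.56 ± 0.51 and Grk2 at −0.03 ± 0.18. Other phosphodiesterases had 5 higher and 10 lower (median −0.06). Pde8b, a cyclic AMP-specific enzyme, had 7.89, 3.40 and 3.84 CPM in KO-TAC and 0.786, 1.38 and 2.74 CPM in WT-TAC, low levels that did not overlap, with a log2 fold change of 1.61 ± 0.65 (unadjusted p = 0.0269, adjusted p = 0.999 in edgeR). Pde1b had −1.24 ± 0.73, and WT-TAC replicate 1, at 13.4 CPM, lay far above its other 5 libraries.

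Downstream, protein kinase A subunits and inhibitors had 3 higher and 5 lower (median −0.07). Prkar2b, a regulatory subunit, had 6.14, 1.58 and 4.58 CPM in KO-TAC and 15.4, 4.82 and 12.9 CPM in WT-TAC, which overlapped, with a log2 fold change of −1.43 ± 0.54 (unadjusted p = 0.0192, adjusted p = 0.999 in edgeR). It lies in the same list as Prkar1a, the far more abundant regulatory subunit, at 0.22 ± 0.24. Anchoring proteins were split 5 and 5 (median −0.00073), with Akap12 at 0.30 ± 0.21 and Akap1 at 0.31 ± 0.22. Other cyclic AMP effectors had 4 higher and 2 lower (median 0.07), with Rapgef3, the exchange factor also called Epac1, at 0.46 ± 0.29 and Bves at −0.14 ± 0.22.

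Protein kinase A substrates of the myocyte had 7 higher and 2 lower (median 0.11). Rrad, a small GTPase that restrains L-type calcium channels until protein kinase A phosphorylates it, had 207, 193 and 224 CPM in KO-TAC and 137, 174 and 99.2 CPM in WT-TAC. Its groups did not overlap, and its log2 fold change of 0.61 ± 0.21 had the smallest unadjusted p of the 90 genes, 0.0129 (adjusted p = 0.999 in edgeR). Pln, the phospholamban gene, had −0.33 ± 0.40. Response factors and target genes had 4 higher and 8 lower (median −0.14). Per1, a target of cyclic AMP signalling that is also a clock gene, had −1.12 ± 0.42 (unadjusted p = 0.0288), and Crtc3, a coactivator, 0.39 ± 0.23 with levels of 23.5 to 27.0 CPM in KO-TAC and 18.2 to 20.4 in WT-TAC that did not overlap. The hour at which hearts were taken is not known from the labels. Genes of catecholamine synthesis, uptake and breakdown had 2 higher and 3 lower (median −0.02), with Ddc, the decarboxylase that makes dopamine, at −0.62 ± 0.63 and Dbh, which turns dopamine into noradrenaline, at 0.19 ± 0.96.

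**Figure D4:**
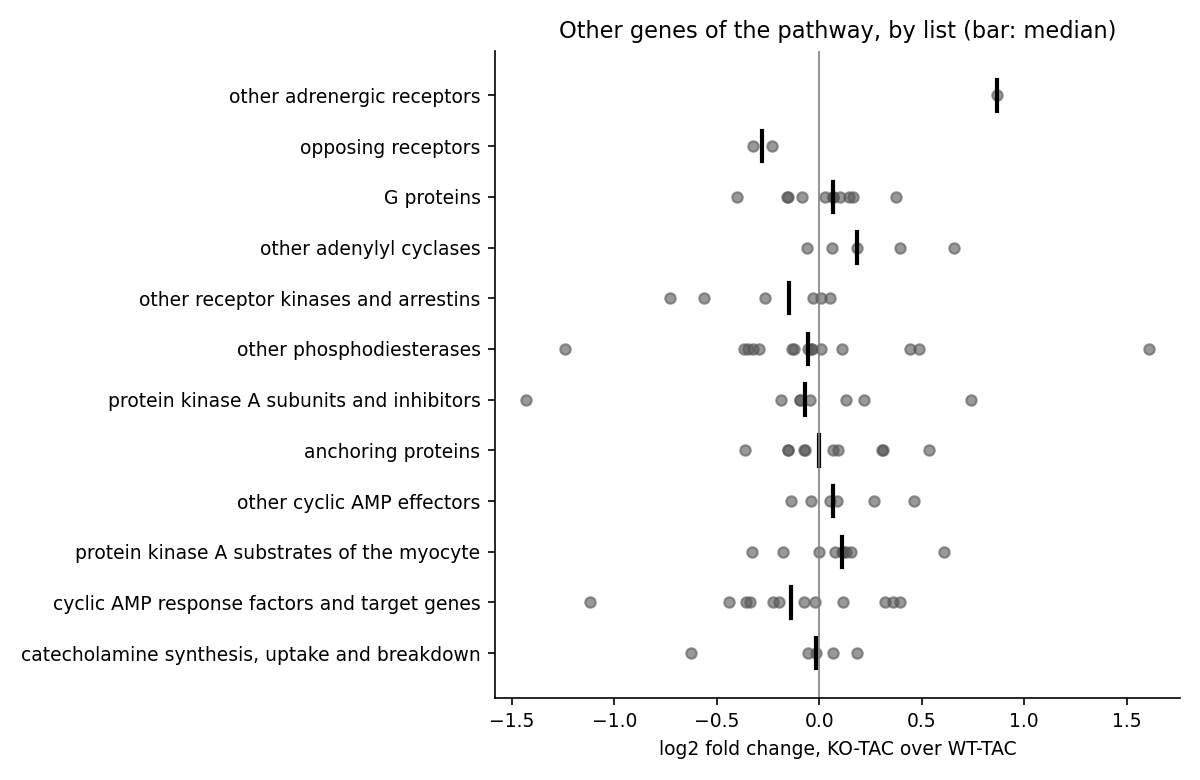
Log2 fold change of KO-TAC over WT-TAC (x axis) of the 90 tested genes of the 12 pathway lists (rows), 1 point a gene, with a vertical bar at each list's median. Points scatter on both sides of 0 in most lists, 44 above and 46 below in all, and none passed the test.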

How the data were processed

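The authors deposited unnormalized whole-number counts for each gene symbol and library. Per the submitters' processing notes, edgeR, Subread, HISAT2 2.1.0 and FastQC and the builds GRCm38 and mm10 were used, in roles that are not stated. Per the labels' protocols, libraries came with a kit that either keeps strand or does not, with no record of which sample had which. Adcy6 and Pde3a overlap annotated antisense genes (Gm29331 and Gm28523) over 605 and 741 exonic bases, so reads there cannot be told apart. Of the 50-base words of the 9 genes' transcripts, 0% to 7.42% occur in another gene.

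The test was that of edgeR 4.0.16 (R 4.3.3): filterByExpr with a minimum count of 10, TMM scaling, robust quasi-likelihood fit, genotype only, Benjamini-Hochberg adjustment over 12487 genes, threshold 0.05. Standard errors divide the size of the log2 fold change by the root of F, and 95% intervals use the test's t quantile. Totals ran from 6411538 to 8571737 counts and the common biological coefficient of variation was 0.286. Grk2 and Grk3 are listed in the table under their older symbols Adrbk1 and Adrbk2. Exon lengths come from GENCODE M21 (GRCm38). Ratios of counts used a prior count of 0.5. Named are the 9 genes, the 2 smallest p values of each list and 3 genes like Adrb1. Gnas, Grk2, the genes named only for levels and those singled out for groups that do not overlap, Gna11 among them, were added after their values were seen. The members and lists were chosen with earlier results of these data known. A few pathway genes are not reported here. Alternatives were other scalings, filters, DESeq2 1.42.0, limma-voom (limma 3.58.1), a replicate block, each replicate left out, another prior count and another length.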

Additional observations from a re-analysis of the deposited data

How the results depend on the processing

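With 3 libraries a genotype, the spread between samples limits what could be detected: the narrowest fold interval of the 9 genes, that of Adcy6, ran from 0.698 to 1.19. The 9 genes were called in none of the fits. Over all genes 3 were called, but 21 without a filter, 17 in DESeq2, 0 in limma-voom (364 at an unadjusted p under 0.05), 6 with the replicate block and 0 to 7 with 1 library left out, namely 0 without WT-TAC replicate 1 (unadjusted p under 0.05 for 437), 7 without replicate 2 of KO-TAC and 6 without replicate 3 of KO-TAC. Same-numbered libraries deviated together with correlations of 0.135, 0.0110 and 0.257. KO-TAC replicates 1 and 3 correlated best with their own number, and KO-TAC replicate 2 with WT-TAC replicate 1 (0.146). No label says what a shared number marks, so the numbers were not taken as pairs. With the replicate block 0 of the 9 genes were called. In that edgeR fit 574 genes had an unadjusted p under 0.05, against 366 in the main fit.

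Adrb1, near 0, turned to −0.032 without scaling and −0.0030 with a minimum count of 50. Other scalings, filters, DESeq2, limma-voom and the block kept the direction of the other 8 genes. Leaving out each library in turn gave −0.20 to 0.32 for Adrb1, −0.64 to 0.19 for Adra1a, −0.10 to 0.60 for Adra1b and −0.29 to 0.094 for Adcy5, which changed sign, and from −0.19 to −0.05 for Adcy6, 0.06 to 0.40 for Grk5, 0.26 to 0.44 for Pde3a, −0.62 to −0.13 for Pde4d and −0.36 to −0.09 for Pde4b. Ratio differences ran from −0.11 to 0.14 for Adcy5 over Adcy6, −0.45 to 0.10 for Pde4d over Pde4b, −0.55 to −0.13 for Adra1a over Adra1b and 0.07 to 0.44 for Grk5 over Adrb1. With a prior count of 2 all 4 kept their direction. By the longest transcript the level was 5.10 for Adra1a, 34.2 for Adcy6, 14.5 for Pde4d and 9.82 CPM per kilobase for Pde4b. The difference in cyclase share ran from −6.39 to −3.68 percentage points with 1 library left out, and in receptor share from −6.88 to 0.48. The cause of these changes was not tested.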

Other observations

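By Pearson correlation of log2 CPM over the 6 libraries, the genes whose pattern was most like that of Adrb1 were Nom1 (0.992), Prrc2b (0.980) and Shfm1 (0.979), the highest of 12486 genes compared. This is a description over 6 libraries that share their depth and tissue makeup.

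Adrb1 and Grk5 lie on chromosome 19, as does Mir204, at 34.0 and 38.1 Mb from it. The other 7 genes lie on chromosomes 14, 11, 16, 15, 6, 13 and 4.

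Th, which makes the rate-limiting enzyme of catecholamine synthesis, and Npy, a peptide of sympathetic neurons, had 0 counts in all 6 libraries. The 6 sympathetic neuron markers summed to 9.46 to 24.8 CPM in KO-TAC and 14.1 to 51.4 CPM in WT-TAC. Only 2 of these 6 markers passed the filter on low counts, so the sum is a low level and was not tested.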
